A study of Mus musculus with 36 samples.

Results

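The genes described here are the potassium channel genes of the mouse brain outside the EAG family, in the cerebellum and the hippocampus of Pogz-deficient mice. Members were the rows of the count tables whose symbol begins with Kcn, leaving out Kcnh1 to Kcnh8 and the imprinted RNA Kcnq1ot1, with more than 1 CPM (the count scaled to library depth) in at least 6 libraries of either table. This gave 74 of the 24421 genes in the tables, of 89 candidate rows. Of the 74 members, 64 passed in both tissues, 3 passed only in the cerebellum (Kcnk5, Kcnq1 and Kcnv2) and 7 only in the hippocampus (Kcnd3os, Kcng1, Kcng3, Kcnj4, Kcnj14, Kcnmb1 and Kcnv1), so that 67 members were tested in the cerebellum and 71 in the hippocampus. The remaining 15 rows, among them Kcnj1, Kcnk18 and Kcnn4, passed in neither.

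RNA-seq covered both tissues of 18 adult C57Bl/6 mice, 6 of each genotype, with 3 males and 3 females in each. Control mice were Pogzfl/fl without Cre, Pogz cKO+/- mice were NesCre/+; Pogzfl/+, and Pogz cKO-/- mice were NesCre/+; Pogzfl/fl. Pogz encodes a zinc finger protein of heterochromatin, and Nestin-Cre removes the floxed exons in the precursors of neurons and glia, so that cells of other origin, such as vessels and microglia, keep the gene. No group carried Cre without a floxed allele, so that against the controls an effect of Cre cannot be told apart from that of the deletion, while cKO+/- and cKO-/- mice both carried Cre.

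Potassium channels set the resting potential of neurons, end the action potential and limit repetitive firing, and in astrocytes they take up the potassium that firing neurons release. Voltage-gated (Kv) channels are made of 4 pore subunits. The Kv1 and Kv2 families give delayed rectifiers, Kv3 channels serve fast spiking, Kv4 channels carry the A-type current, and Kv7 channels carry the M-current. Modifier subunits form no channel alone and change the Kv2 channels they join. Inward rectifiers (Kir), two-pore leak channels (K2P), calcium-activated channels (KCa) and the sodium-activated channels of the Slo2 family complete the pore-forming members, and auxiliary subunits alter their gating and transport. The members held 6 Kv1, 2 Kv2, 4 Kv3, 3 Kv4, 5 Kv7, 10 modifier, 12 Kir, 10 K2P, 4 KCa, 3 Slo2 or Slo3 and 13 auxiliary genes, and 2 antisense RNAs.

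Library totals ran from 21421850 to 32544929 reads in the cerebellum and from 17609321 to 45544188 in the hippocampus. Pogz, whose count covers the whole gene and so checks the deletion only in part, fell in both tissues, with a mean of 99.5 ± 15.2 CPM (SD, n = 6) in control, 77.6 ± 5.77 in cKO+/- and 65.7 ± 7.33 in cKO-/- cerebella, and of 90.8 ± 1.24, 76.3 ± 2.26 and 60.3 ± 4.60 CPM in hippocampi. The hippocampal library of cKO-/- mouse Sample_1160 stood apart from the other 5 of its genotype in several members. It was left out of the tests in the hippocampus because the study left out 1 outlier RNA sample, unnamed, which was inferred to be this library. The members called there by dose or sex are also given with it. In 4 cerebellar libraries (cKO+/- mice Sample_933 and Sample_1433, cKO-/- mice Sample_936 and Sample_1385) a list of 13 brainstem and midbrain genes summed to 67.1 to 132 CPM, against 6.78 to 15.4 CPM in the controls. Another 4 cKO libraries lay between 28.6 and 31.2 CPM, and cKO-/- mouse Sample_1160 was at 3.08 CPM with 9 of the 13 genes at 0. All controls carried animal numbers from Sample_1120 to Sample_1219, while 3 cKO+/- and 4 cKO-/- mice carried numbers outside that run. The labels do not say what the numbers stand for. The tissue labels held, with Purkinje cell markers summing to 7884 to 17079.8 CPM in the cerebellar libraries and 641 to 1170.4 CPM in the hippocampal ones. Of the other marker lists, none of 7 Purkinje cell and 5 thalamus genes passed in the cerebellum, while 3 of 7 interneuron, 2 of 6 microglia, 1 of 7 oligodendrocyte and 1 of 5 striatum genes tested rose, 1 of 6 endothelial genes fell, and 3 of 6 hippocampal neuron genes rose and 1 fell. None of 5 choroid plexus genes passed there, and of 3 brainstem and midbrain genes tested 1 rose. The 4 libraries high in brainstem markers stood apart in other lists too. Microglia markers summed to 117 to 138 CPM in them against 78.1 to 85.9 in the controls, and oligodendrocyte markers to 7912 to 9567 against 4037 to 5982 CPM. Choroid plexus markers summed to 2361 to 3160 CPM in Sample_933, Sample_936 and Sample_1433 and to 32.6 CPM in Sample_1385, against 18.6 to 26.3 CPM in the controls. In the hippocampus none of the microglia, oligodendrocyte, choroid plexus, Purkinje cell, granule cell and brainstem genes tested passed, 1 of 5 thalamus genes fell, and the interneuron and striatum lists each had 1 gene rising and 1 falling. The summed striatum list was at 66.7 to 76.6 CPM in control and 80.9 to 101 CPM in the 5 cKO-/- hippocampi tested, without overlap, and at 135 CPM in Sample_1160. Its part in the results in the hippocampus was not tested.

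In control mice the channel genes with the highest levels differed between the tissues (plot of level per gene length). RPKM, which scales the count by gene length and depth, was used to compare genes. In the cerebellum Kcnk1, a weak leak channel, was at 106 ± 4.83 RPKM (SD, n = 6), and Kcnd2, a Kv4 subunit, at 88.7 ± 6.31 RPKM. These genes did not overlap in any library, while the next in order, the Kv3 subunit Kcnc1 (75.1 to 92.6 RPKM) and the sodium-activated Kcnt1 (60.1 to 109 RPKM), overlapped with Kcnd2 (81.8 to 98.0 RPKM). In the hippocampus the highest member was the auxiliary subunit Kcnab2 at 269 ± 31.1 RPKM. Kcnip2, a calcium-binding partner of Kv4 channels, came next at 109 ± 8.04 RPKM, and their ranges did not overlap.

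The leading gene of a family was often the same in both tissues. This held for Kcna1 in Kv1 (57.8 RPKM in the cerebellum and 28.5 in the hippocampus), Kcnd2 in Kv4 (88.7 and 38.5), Kcnk1 in K2P (106 and 52.0), Kcnn2 in KCa (19.1 and 27.0) and Kcnt1 in Slo2 (77.2 and 10.4), all mean RPKM. In 3 groups it was not. Among the modifiers the leader was Kcng4 in the cerebellum (57.6 RPKM) and Kcnf1 in the hippocampus (16.8 RPKM). Among the inward rectifiers it was Kcnj9 in the cerebellum (52.7 RPKM) and Kcnj3 in the hippocampus (40.6 RPKM), both subunits of channels opened by G proteins. Among the auxiliary genes it was Kcnab1 in the cerebellum (66.1 RPKM) and Kcnab2 in the hippocampus. Of the antisense RNAs, Kcnmb4os2 led with 3.99 and 2.99 RPKM.

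**Figure D1:**
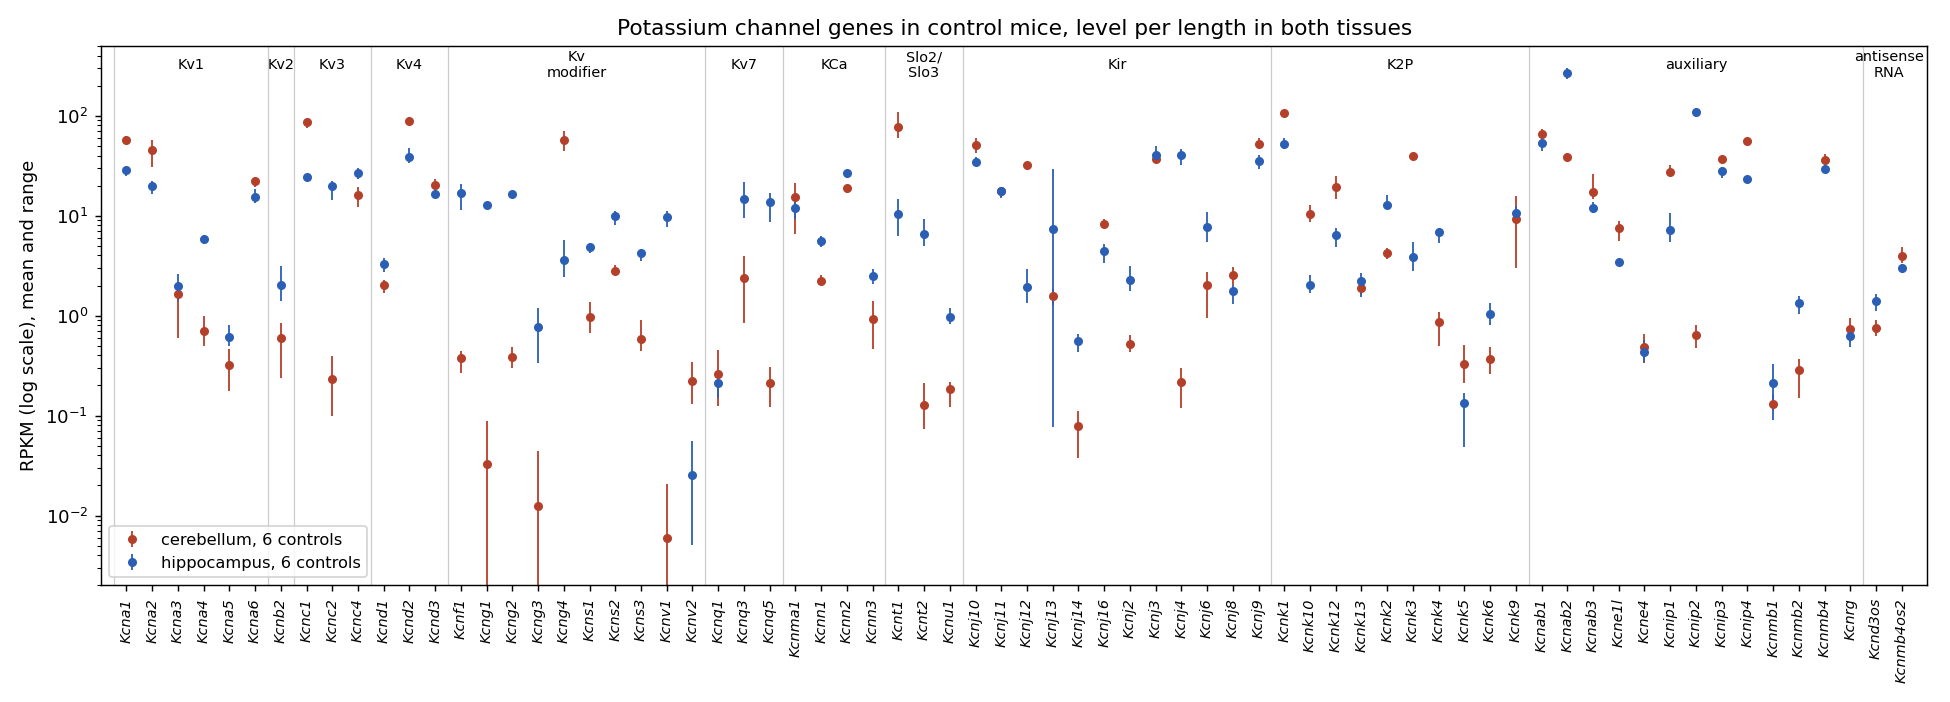
Level of 70 of the potassium channel genes in control mice, as mean RPKM on a log axis, with red points for the cerebellum, blue for the hippocampus, bars for the range over 6 mice, and lines between families. Kcnk1 lies at 106 RPKM in the cerebellum and Kcnab2 at 269 RPKM in the hippocampus.

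Most members differed between the tissues, as did most genes. With edgeR's quasi-likelihood test over the 12 control libraries, without a term for the mouse, 34 of 70 members were higher in the hippocampus and 27 lower at an adjusted p under 0.05, against 35.2% and 36.7% of all 14224 genes tested (71.9% in either direction). The median member was 0.38 higher in the hippocampus on the log2 scale, and the median gene -0.02. The counts and the median include Kcnd3os, Kcng1, Kcng3, Kcnj4, Kcnj14 and Kcnv1, which are members only through their hippocampal level. Kcnk5 and Kcnq1, members only through their cerebellar level, were not tested here. Of the 10 modifiers, Kcnf1, Kcng2, Kcns1, Kcns2 and Kcns3 were higher in the hippocampus and Kcng4 lower. Kcng1, Kcng3 and Kcnv1, also higher there, were members only through their hippocampal level, and Kcnv2, at 0.224 RPKM in the cerebellum and 0.0254 in the hippocampus, passed the filter only in the cerebellum and was not tested here.

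The largest differences toward the hippocampus were near all-or-none. Kcnv1, a modifier that silences Kv2 channels, had 0 to 3 reads in the cerebellar controls and up to 2040 in the hippocampal ones, where it was at 33.5 to 48.4 CPM, and Kcng1 had 0 to 6 against 900 to 1292 reads. No fold is given for this pair, because the cerebellar counts are at or near 0. Kcnj4, an inward rectifier of forebrain neurons and also a member only through its hippocampal level, had 7 to 19 reads against 2556 to 3747. It was 7.52 ± 0.15 higher (log2 ± SE). Kcnip2 was 7.41 ± 0.12 higher and Kcnc2, a Kv3 subunit of fast-spiking interneurons, 6.45 ± 0.22. Adjusted p-values of these 5 genes ran from 2.15e-14 to 1.26e-11, but for Kcnv1, Kcng1 and Kcnj4 the direction follows from the filter that made them members. In the other direction, the log2 difference was -4.06 ± 0.14 for the inward rectifier Kcnj12, -4.02 ± 0.21 for Kcng4, -3.35 ± 0.12 for the acid-sensitive leak channel Kcnk3, -2.92 ± 0.17 for Kcnt1 and -2.36 ± 0.13 for the mechanosensitive leak channel Kcnk10. Their adjusted p-values ran from 1.26e-11 to 3.07e-09, and the ranges of counts in the 2 tissues did not overlap for any of the 10 genes. Kcnj13, an inward rectifier of the choroid plexus, ran from 3 to 1378 reads within the hippocampal controls and had no call (0.79 ± 1.29 on the log2 scale, adjusted p = 0.597). Choroid plexus markers summed to between 31.6 and 4921 CPM in the same libraries.

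In the cerebellum, 13 of 67 members changed with the number of Pogz alleles lost, 9 rising and 4 falling, against 13.7% of all 14027 genes tested (7.11% rising and 6.55% falling). All 3 genes of the Slo2 and Slo3 group changed, as did 3 of 5 Kv7, 2 of 4 Kv3 and 2 of 3 Kv4 genes, and none of the 6 Kv1, 2 Kv2, 4 KCa and 12 auxiliary genes passed. Of the Slo2 and Slo3 genes, Kcnu1 and Kcnt2 had no control library above 1 CPM. They were tested here only through their cKO libraries, so their place among the rising genes depends in part on the filter. The median member did not move (log2 change per allele lost of -0.00, as for the median gene, 0.00), and 34.3% of members had an unadjusted p under 0.05, against 30.2% of all genes. Values below are CPM in single libraries, given as lowest, median and highest of the 6 mice, and log2 changes per allele lost with their SE, from edgeR's quasi-likelihood test with Benjamini-Hochberg adjustment over all genes. In bulk tissue, fewer cells of a type and less RNA per cell cannot be told apart.

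Kcnu1 (chr8:25849623-25937934, GRCm38), a Slo family gene best known from sperm, had the smallest adjusted p. It was at 0.446, 0.692 and 0.799 CPM in control, 0.839, 1.06 and 1.77 in cKO+/- and 1.52, 1.82 and 2.43 in cKO-/- cerebella. All 12 cKO libraries lay above all 6 controls. The change was 0.73 ± 0.10 per allele (adjusted p = 0.000155). No control library reached 1 CPM, so the gene was tested only because its cKO libraries did, and it had 13 to 65 reads per library. It still passed without the filter on low counts and in each of the other fits made in the cerebellum.

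The sodium-activated channels moved in opposite directions. Kcnt2 (chr1:140246257-140610261) was at 0.302, 0.452 and 0.858 CPM in control, 0.647, 0.808 and 2.20 in cKO+/- and 0.917, 1.48 and 1.86 in cKO-/- mice, a change of 0.73 ± 0.15 (adjusted p = 0.00387). It too had no control library above 1 CPM, and the cKO-/- libraries lay just above the controls. Kcnt2 passed without the filter as well (adjusted p = 0.0041). It shares 102 bases (2.58% of its length) with a transcript on the opposite strand that had at most 4 reads in a library. Kcnt1, its abundant relative, fell by 0.31 ± 0.09 (adjusted p = 0.0231), from 385, 444 and 699.9 CPM in control through 315, 391.6 and 441 in cKO+/- to 199, 304 and 475 in cKO-/- mice, with overlapping groups. The call of Kcnt1 was lost without mouse Sample_1129, Sample_1190, Sample_1371 or Sample_1385 (adjusted p = 0.0501 to 0.0673).

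Kcnq5 (chr1:21398403-21961942), an M-channel subunit, was at 0.867, 1.47 and 2.20 CPM in control, 1.55, 3.25 and 8.32 in cKO+/- and 3.39, 4.45 and 10.997 in cKO-/- mice. Every cKO-/- library lay above every control, and the change was 0.98 ± 0.19 (adjusted p = 0.0027).

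The A-type Kv4 channels also went both ways. Kcnd2 (chr6:21216109-21729805) was at 383, 413 and 458 CPM in control, 229.7, 359 and 417 in cKO+/- and 164, 222 and 355 in cKO-/- cerebella. All cKO-/- libraries lay below all controls, and the fall was 0.38 ± 0.08 per allele (adjusted p = 0.00697). Kcnd3 (chr3:105452330-105674002) rose by 0.17 ± 0.04 (adjusted p = 0.0177), from 114, 155 and 172 CPM in control through 139, 173 and 188 to 174, 189 and 220.3 in cKO-/- mice. Kcnd1, the other Kv4 gene, had a change of -0.05 and did not pass. Of 7 markers of granule cells, which are known to carry Kcnd2, 1 fell (Barhl1), and the summed list ran from 5054 to 6034 CPM in control and from 3066 to 6406 CPM in cKO-/- mice. Its part in the fall of Kcnd2 was not tested.

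Kcnj10 (chr1:172341210-172374085), the inward rectifier through which glia take up potassium, rose in both tissues. In the cerebellum it was at 240.3, 276 and 335 CPM in control, 328, 404 and 466 in cKO+/- and 351, 439.8 and 572 in cKO-/- mice. The controls and the cKO-/- mice did not overlap, and the change was 0.35 ± 0.07 (adjusted p = 0.00249). Of 8 astrocyte markers, 4 rose as well (Aqp4, Gfap, Gja1 and Slc1a2), none fell, and the list summed to 3831 to 4649 CPM in control and 4351 to 5838 CPM in cKO-/- cerebella. The part of the astrocyte markers in the change of Kcnj10 was not tested.

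Kcng4 (chr8:119623854-119635680), a modifier of Kv2 channels, was the only member to fall in both tissues. In the cerebellum it was at 176, 236 and 274 CPM in control, 175, 191 and 237 in cKO+/- and 119, 149 and 209 in cKO-/- mice, a change of -0.27 ± 0.07 (adjusted p = 0.0135) with overlapping groups. Of the other called genes, Kcnc2 rose by 1.65 ± 0.47 (adjusted p = 0.0268), its Kv3 relative Kcnc4 by 0.19 ± 0.06 (adjusted p = 0.0428) and the acid-sensitive leak channel Kcnk5 by 0.49 ± 0.16 (adjusted p = 0.0438). Kcnc2 was at 0.637 to 2.51 CPM in control, 1.40 to 33.95 in cKO+/- and 0.803 to 41.6 in cKO-/- mice, and its call was lost without mouse Sample_1129, Sample_1172, Sample_1190 or Sample_1385, down to 1.16 (adjusted p = 0.146) without mouse Sample_1385. Kcnc4 and Kcnk5 each lost the call in 11 of the 18 fits that left out 1 mouse.

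**Figure D2:**
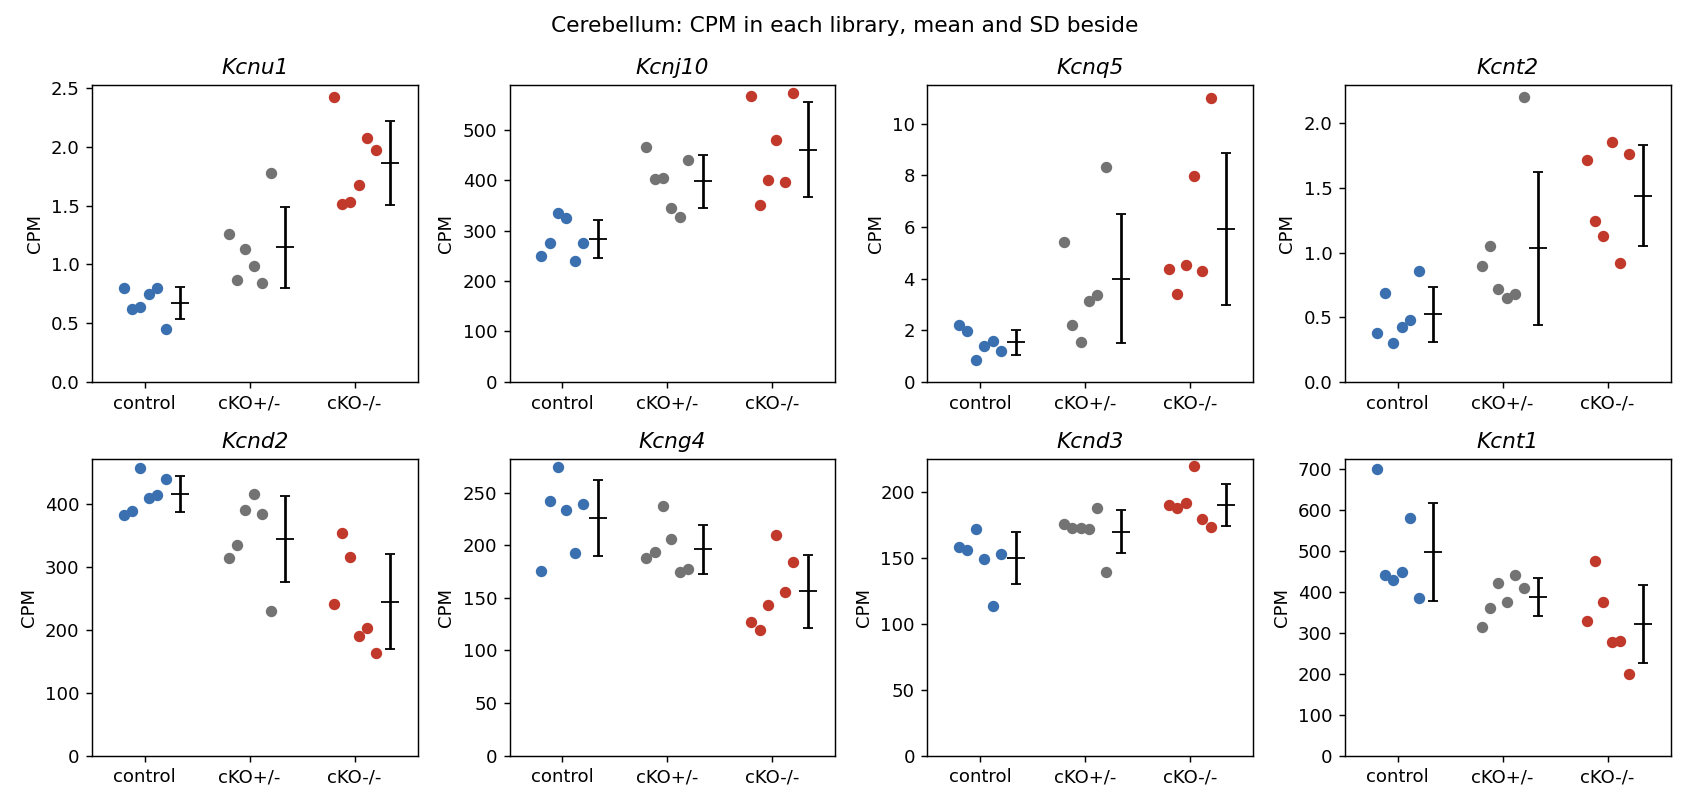
CPM of 8 called potassium channel genes in the cerebellum, 1 point per mouse (blue control, grey cKO+/-, red cKO-/-), with the mean and SD of 6 mice beside the points. Kcnu1, Kcnj10, Kcnq5 and Kcnt2 sit higher in every cKO-/- library than in every control, with Kcnu1 at 1.52 to 2.43 against 0.446 to 0.799 CPM, and Kcnd2 sits lower.

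Kcnj10 and Kcng4 were the 2 members called in both tissues, and both kept their direction. The 300 bases around their start sites (250 before and 50 after, RefSeq, GRCm38.p6, 5′ to 3′ along the gene) are shown to set the gene that rose beside the gene that fell, with each CG pair in capitals. Kcnj10 lies at chr1:172340960-172341259 on the plus strand and Kcng4 at chr8:119635631-119635930 on the minus strand.
Kcnj10: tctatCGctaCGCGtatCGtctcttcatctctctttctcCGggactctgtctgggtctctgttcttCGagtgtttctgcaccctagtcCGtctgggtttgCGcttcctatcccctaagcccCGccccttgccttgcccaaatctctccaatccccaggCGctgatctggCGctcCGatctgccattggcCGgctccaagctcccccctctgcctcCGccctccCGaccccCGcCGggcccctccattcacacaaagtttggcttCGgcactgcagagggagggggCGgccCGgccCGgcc
Kcng4: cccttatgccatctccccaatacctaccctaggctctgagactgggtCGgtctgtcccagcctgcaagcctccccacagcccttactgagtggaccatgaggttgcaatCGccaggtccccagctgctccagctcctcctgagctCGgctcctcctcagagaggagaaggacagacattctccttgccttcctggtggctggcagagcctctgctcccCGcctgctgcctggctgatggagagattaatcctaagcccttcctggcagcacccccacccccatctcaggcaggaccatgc
The Kcnj10 window holds 21 CG pairs and the Kcng4 window 4. Of 32817 windows of the same length, 24.8% hold at least 21, 38.1% hold at most 4, and the median is 7. The letters TATAAA are on neither strand of either window and are in 13.6% of all windows. Windows were found for 51 of the 74 members, whose CG counts ran from 1 to 49 with a median of 11. These counts are a description of the letters.

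Kcnc2 moved with the brainstem and midbrain list (plot of channel genes against that list). In the 4 cerebellar libraries where the list was highest, Kcnc2 was at 18.5 to 41.6 CPM, in the other 8 cKO libraries at 0.803 to 8.86, and in the controls at 0.637 to 2.51 CPM. The cKO-/- library with the lowest list, of mouse Sample_1160, also had the lowest Kcnc2 of its group, 0.803 CPM. Kcnq5 was at 4.37 to 10.997 CPM in the same 4 libraries and at 1.55 to 7.99 in the other 8, with 3.39 CPM in mouse Sample_1160. The part of the list in either change was not tested. Without the 4 libraries, 8 members passed, 7 of them among the 13, and 4.94% of all genes. Among these, Kcnu1 (0.66, adjusted p = 0.000833), Kcnq5 (0.85, adjusted p = 0.00102), Kcnt2 (0.65, adjusted p = 0.00897), Kcnj10 (0.27, adjusted p = 0.00952), Kcnd2 (-0.31, adjusted p = 0.0303) and Kcnd3 (0.19, adjusted p = 0.0309) passed, and Kcnk4, a mechanosensitive leak channel, was added (-0.53, adjusted p = 0.0388). Kcnc2 (0.98, adjusted p = 0.0721), Kcng4 (-0.26, adjusted p = 0.0593), Kcnt1 (-0.25, adjusted p = 0.0929), Kcnc4 (0.15, adjusted p = 0.156) and Kcnk5 (0.44, adjusted p = 0.177) did not pass.

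**Figure D3:**
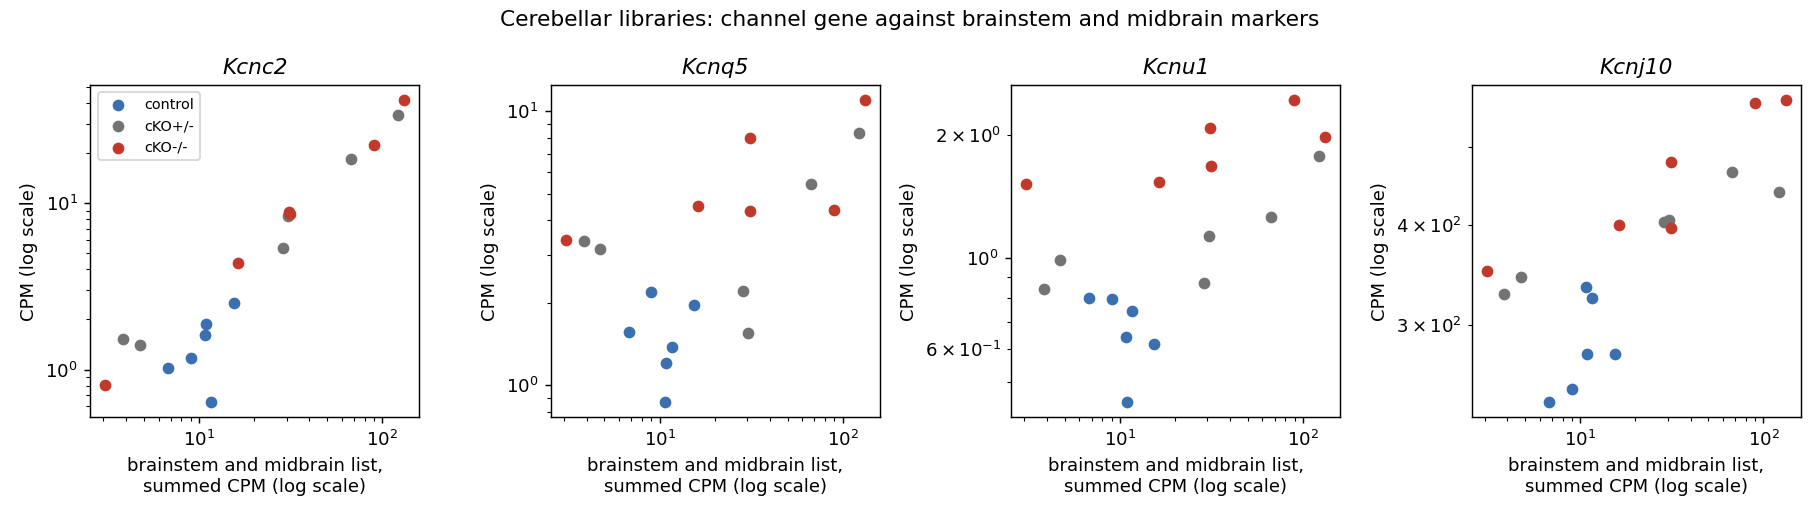
CPM of Kcnc2, Kcnq5, Kcnu1 and Kcnj10 in the 18 cerebellar libraries against the summed CPM of 13 brainstem and midbrain genes, both on log axes, with 1 point per mouse coloured by genotype. Kcnc2 reaches 41.6 CPM at 132 CPM of the list, and the cKO-/- library with the least of the list, 3.08 CPM, has Kcnc2 at 0.803 and Kcnq5 at 3.39 CPM.

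With a term for animal numbers outside the run of the controls, only Kcnu1 of the 13 passed in the cerebellum (0.59, adjusted p = 0.00512), and Kcnk4 again was added (-0.68, adjusted p = 0.0251), with 2.2% of all genes called. Of those that did not pass, Kcnd3 (0.19) and Kcng4 (-0.31) had changes at least as large as before, Kcnq5 (0.66), Kcnt2 (0.51), Kcnj10 (0.22), Kcnd2 (-0.23) and Kcnt1 (-0.19) had smaller ones, and those of Kcnc2 (0.46), Kcnc4 (0.09) and Kcnk5 (0.09) were the most reduced. Among the 11 mice numbered Sample_1120 to Sample_1219, 3 members and 1.97% of all genes passed. The 3 were Kcnu1 (0.58, adjusted p = 0.0237), Kcnq5 (0.71, adjusted p = 0.0332) and Kcnk4 (-0.75, adjusted p = 0.0248). Kcnk5 turned to -0.05 there (adjusted p = 0.872), while the other 12 kept their sign.

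In the hippocampus, 8 of 71 members changed with Pogz dose, 3 rising and 5 falling, against 4.44% of all 14339 genes tested (2.09% rising and 2.35% falling). Of 9 modifier genes, 4 changed, Kcnv1 rising and Kcng2, Kcng4 and Kcns1 falling, and of 12 inward rectifiers 3, Kcnj10 and Kcnj16 rising and Kcnj11 falling. The auxiliary Kcnip2 fell. None of the Kv1, Kv2, Kv3, Kv4, Kv7, K2P, KCa, Slo2 and Slo3 genes passed, and the median member changed by -0.02 against 0.00 for the median gene. At an unadjusted p under 0.05 there were 17 members, 23.9% against 20.1% of all genes.

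Kcnj10 was at 168, 175 and 204 CPM in control and 184, 211 and 220.3 in cKO+/- hippocampi, and at 230.2 to 279.6 CPM in the 5 cKO-/- libraries tested (median 240.0). The 5 lay above all controls, while mouse Sample_1160 was at 148 CPM, below them. The change was 0.23 ± 0.03 per allele (adjusted p = 0.000292), and 0.18 (adjusted p = 0.106) with mouse Sample_1160. Kcnj16 (chr11:110968033-111027967), which joins Kcnj10 in glial channels, was at 13.03, 17.1 and 20.5 CPM in control, 17.6, 25.0 and 29.3 in cKO+/- and 21.2 to 32.1 CPM in the 5 cKO-/- mice, with 16.97 in mouse Sample_1160. The controls and the 5 cKO-/- mice did not overlap, and the change was 0.31 ± 0.08 (adjusted p = 0.0305), or 0.26 (adjusted p = 0.186) with mouse Sample_1160. It was lost in 7 of 17 fits that left out 1 mouse. Of 8 astrocyte markers 1 rose, Aqp4, and the list summed to 4064 to 5745 CPM in control and 4362 to 5283 CPM in the 5 cKO-/- mice, and the groups overlapped. In the cerebellum Kcnj16 had a change of 0.09 ± 0.05 (adjusted p = 0.262).

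Kcns1 (chr2:164163619-164171113), a Kv2 modifier, was at 11.2, 13.2 and 13.998 CPM in control, 10.3, 12.2 and 13.6 in cKO+/- and 6.57 to 9.57 CPM in the 5 cKO-/- hippocampi. The 5 lay below every other library, and mouse Sample_1160, at 16.9 CPM, lay above every library. The change was -0.37 ± 0.07 (adjusted p = 0.00493), and -0.25 (adjusted p = 0.227) with mouse Sample_1160. Kcng2, of the same class, behaved alike: 42.4, 44.9 and 48.4 CPM in control, 30.2, 37.7 and 44.9 in cKO+/- and 19.2 to 38.7 in the 5 cKO-/- mice, against 80.5 CPM in mouse Sample_1160. Its change was -0.31 ± 0.07 (adjusted p = 0.0172), lost without mouse Sample_1379 (adjusted p = 0.0533), and -0.13 (adjusted p = 0.564) with mouse Sample_1160. Kcnv1 (chr15:45106284-45114934) went the other way, with 33.5, 41.5 and 48.4 CPM in control, 41.8, 46.7 and 57.1 in cKO+/- and 49.5 to 70.1 CPM in the 5 cKO-/- mice. Mouse Sample_1160 was at 40.7 CPM, within the controls, and the change was 0.25 ± 0.06 (adjusted p = 0.0194), or 0.21 (adjusted p = 0.128) with it. The call was also lost without mouse Sample_1371 or Sample_1379.

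Kcng4, more abundant in the cerebellum, also fell in the hippocampus. It was at 8.96, 10.99 and 21.1 CPM in control, 6.12, 8.17 and 15.4 in cKO+/- and 5.16 to 6.37 CPM in the 5 cKO-/- mice, with 4.54 in mouse Sample_1160. The change was -0.60 ± 0.12 (adjusted p = 0.0099), and -0.64 (adjusted p = 0.00806) with mouse Sample_1160. Kcng4 was then the only member called, with 1.72% of all genes. The difference between the tissues did not pass (adjusted p = 0.258). The control libraries of mice Sample_1129 and Sample_1172 were at 21.1 and 18.5 CPM and the other 4 at 8.96 to 11.6 CPM. Cerebellar granule cell markers summed to 329.7 CPM in mouse Sample_1129 and 132 in mouse Sample_1172, and to 82.6 to 103 CPM in the other 4 controls. Among the cKO+/- mice the list was highest in Sample_1433 (128 CPM), whose Kcng4 lay within 6.12 to 9.25 CPM. Next came Sample_933 (117 CPM), with Kcng4 at 15.4 CPM. The part of the list in the level of Kcng4 was not tested. Without the control libraries of mice Sample_1129 and Sample_1172 the change was -0.41 (adjusted p = 0.0668). Then 4 members were called, Kcnj10, Kcns1, Kcnip2 and Kcnj11, and 2.82% of all genes.

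Kcnip2 (chr19:45792346-45816063), the second most abundant member of the hippocampus, was at 234, 263 and 288 CPM in control, 219, 226 and 270.3 in cKO+/- and 196 to 246 CPM in the 5 cKO-/- mice, with overlap. The change was -0.15 ± 0.03 (adjusted p = 0.0152), and -0.09 (adjusted p = 0.349) with mouse Sample_1160, which had 313 CPM. Kcnj11 (chr7:46097123-46100764), the pore of the ATP-sensitive channel, was at 47.2, 55.6 and 60.8 CPM in control, 39.5, 48.9 and 51.8 in cKO+/- and 39.7 to 53.6 CPM in the 5 cKO-/- mice. The change was -0.15 ± 0.04 (adjusted p = 0.0365), -0.16 (adjusted p = 0.0616) with mouse Sample_1160, and it was lost in 9 of 17 fits that left out 1 mouse. Abcc8, the sulfonylurea receptor that surrounds this pore, fell with it by 0.25 ± 0.04 (adjusted p = 0.00235).

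**Figure D4:**
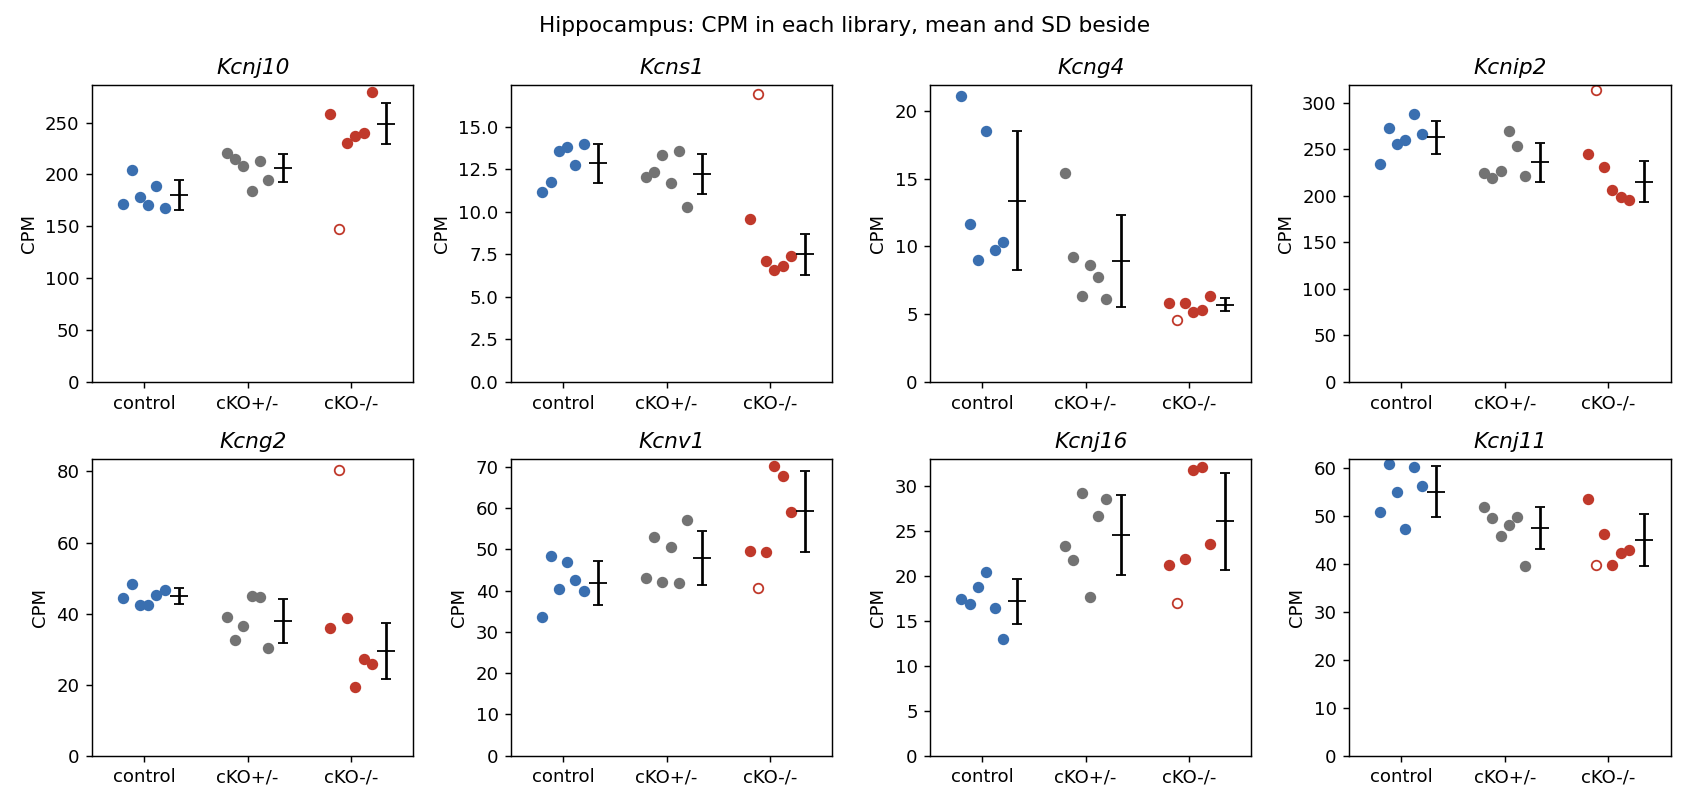
CPM of the 8 called potassium channel genes in the hippocampus, 1 point per mouse (blue control, grey cKO+/-, red cKO-/-), with the mean and SD beside the points. The open red circle is cKO-/- mouse Sample_1160, left out of mean, SD and test, which lies outside the other 5 of its genotype in 7 of the 8 genes, as in Kcng2 at 80.5 CPM against 19.2 to 38.7.

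Markers of hippocampal neurons moved with these genes: 3 of 8 fell, Wfs1 and Dsp among them, and the list summed to 723 to 1141 CPM in control and 639 to 749 CPM in the 5 cKO-/- mice. Of 6 endothelial markers 2 rose (Itm2a and Pecam1), from 139 to 161 CPM summed in control to 158 to 239.9 CPM in the 5 cKO-/- mice. Their part in the changes of the channel genes was not tested. With the term for animal numbers outside the run of the controls, Kcnj10 was the only member called (0.20, adjusted p = 0.0421), with 0.474% of all genes. The changes of Kcng4 (-0.71), Kcns1 (-0.36), Kcnj11 (-0.13) and Kcnj16 (0.26) then lay near or beyond those without the term, and those of Kcng2 (-0.17), Kcnip2 (-0.08) and Kcnv1 (0.16) were smaller. Among the 10 tested mice numbered Sample_1120 to Sample_1219, which hold 1 cKO-/- hippocampus, each of the 8 genes kept its sign. The changes were 0.16 for Kcnj10, 0.32 for Kcnj16, 0.11 for Kcnv1, -0.12 for Kcng2, -0.09 for Kcnip2, -0.25 for Kcns1, -0.17 for Kcnj11 and -0.62 for Kcng4. With 1 cKO-/- library this fit cannot show whether a call holds, and a kept sign is not a call.

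By the ranges of single libraries alone, 7 of 67 members had all cKO-/- cerebella on one side of all controls, against 4.58% of all genes, and 6 of 71 had the 5 cKO-/- hippocampi so, against 3.65%. In each of these 13 cases the mean of the cKO+/- mice lay between the other 2 genotypes. The share of all such genes with this order is not given here. With the hippocampal library of mouse Sample_1160 counted, Kcng4 alone of the 6 hippocampal genes would stay on one side of all controls.

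Across both tissues 19 members were called (plot of change per allele). A gene called in one tissue only is not shown to differ between them, and the difference itself was tested, without a term for the mouse. It passed for 3 of 74 members, against 1.63% of all 14870 genes (1.39% lower and 0.249% higher), each with the lower change in the hippocampus. Kcnu1 changed by 0.73 ± 0.10 in the cerebellum and 0.15 ± 0.05 in the hippocampus (difference -0.59 ± 0.11, adjusted p = 0.00203), where it was at 2.79 to 4.06 CPM in control and 3.50 to 4.99 CPM in the 5 cKO-/- mice. Kcnq5 changed by 0.98 ± 0.19 and 0.08 ± 0.06 (difference -0.89 ± 0.19, adjusted p = 0.0107), with 59.1 to 113.5 CPM in control and 85.0 to 112 CPM in the 5 cKO-/- hippocampi. Without the 4 mice high in cerebellar brainstem markers the differences were -0.48 (adjusted p = 0.0201) and -0.75 (adjusted p = 0.0103). Without mouse Sample_1385 that of Kcnq5 was -0.67 (adjusted p = 0.0618). The difference was not fitted with the term for animal numbers. With that term in the cerebellum, the change of Kcnq5 did not pass (0.66, adjusted p = 0.0729), while that of Kcnu1 did (0.59, adjusted p = 0.00512). Both genes were low in control cerebella, Kcnu1 at 0.446 to 0.799 CPM and Kcnq5 at 0.867 to 2.20 CPM. Kcnab2, a beta subunit, passed in neither tissue alone (0.20 ± 0.07, adjusted p = 0.0575, and -0.11 ± 0.04, adjusted p = 0.172), and its difference of -0.32 ± 0.09 (adjusted p = 0.0462) was lost in 14 of 18 fits that left out 1 mouse and in 5 of 8 other fits planned: with all 18 hippocampi (adjusted p = 0.0886), relative log expression factors (adjusted p = 0.0509), no filter (adjusted p = 0.0732), no sex term (adjusted p = 0.0605) and thinned counts (adjusted p = 0.0759). With all 18 hippocampi the differences of Kcnq5 and Kcnu1 were -0.94 (adjusted p = 0.00779) and -0.50 (adjusted p = 0.0254). For Kcnc2 and Kcnt2 the differences were -1.50 ± 0.45 (adjusted p = 0.0802) and -0.54 ± 0.15 (adjusted p = 0.0626).

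**Figure D5:**
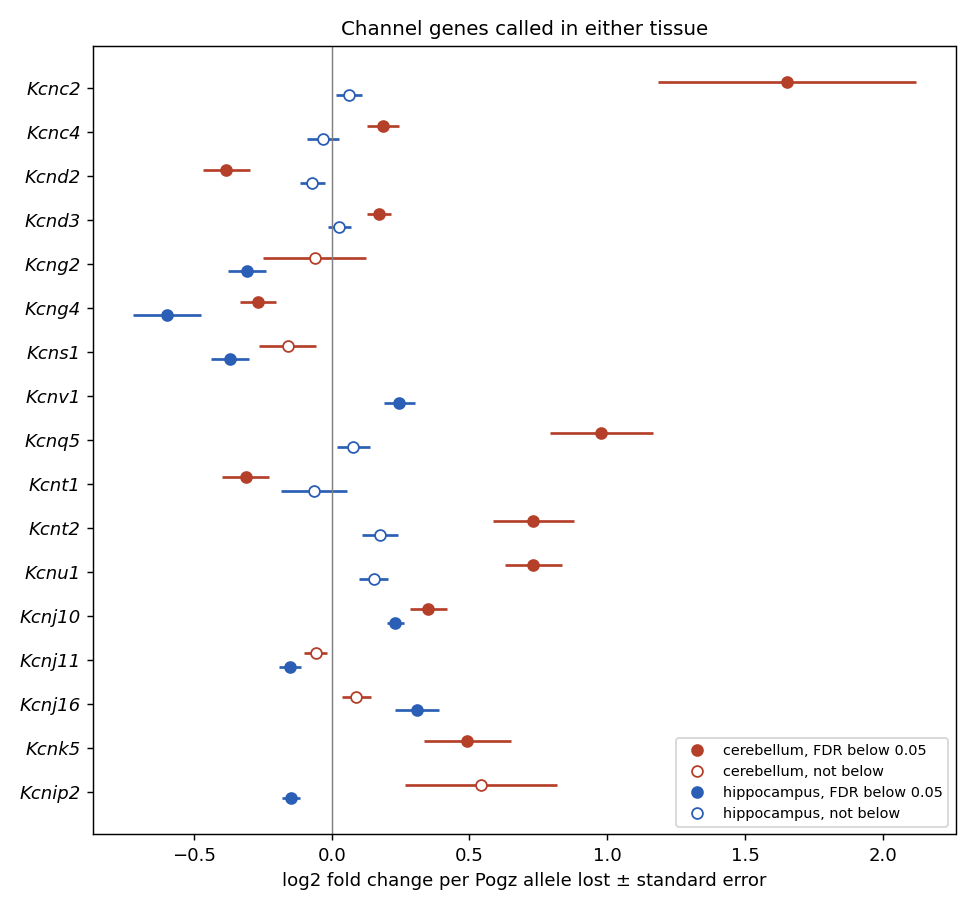
Log2 change per Pogz allele lost, with its standard error, for 17 of the potassium channel genes called in either tissue, with filled points for an adjusted p under 0.05, red for the cerebellum and blue for the hippocampus. Kcnj10 and Kcng4 are filled in both, Kcnj10 at 0.35 and 0.23 and Kcng4 at -0.27 and -0.60, and Kcnv1 was not tested in the cerebellum.

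Other proteins assemble with these channels, and 13 of 14 such partner genes were tested. In the cerebellum 1 of the 13 passed and rose, against 13.7% of all genes called there (7.11% rising). This was Lrrc55, an auxiliary subunit of the large calcium-activated channel. It was at 2.83, 3.56 and 3.91 CPM in control, 3.85, 5.01 and 6.27 in cKO+/- and 5.53, 7.72 and 9.81 in cKO-/- mice, without overlap between controls and cKO-/-, a change of 0.56 ± 0.08 (adjusted p = 0.000155). Its pore gene, Kcnma1, did not pass. In the hippocampus Lrrc55 had a change of -0.14 ± 0.15 (adjusted p = 0.633), and the difference between the tissues passed (-0.71 ± 0.18, adjusted p = 0.027). Abcc8 was the only partner of 13 to pass in the hippocampus, where 4.44% of all genes passed. The fits without the 4 libraries high in brainstem markers, with the term for animal numbers and with mouse Sample_1160 were not looked at for the partners. The Kv4 partners Dpp6 and Dpp10 passed in neither tissue.

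Sex was a term of each fit. In the cerebellum none of 67 members passed with edgeR or DESeq2, against 0.0499% of all genes with edgeR (0.0285% higher in males and 0.0214% lower), and 7 members (10.4%, against 3.39% of all genes) had an unadjusted p under 0.05. In the hippocampus 16 of 71 members (22.5%, against 16.1% of all genes) had an unadjusted p under 0.05. After adjustment 1 passed, against 0.907% of all genes (0.739% higher in males and 0.167% lower). This was Kcnn3, a small-conductance calcium-activated channel, at 17.8, 21.7 and 23.2 CPM (lowest, median and highest) in 9 males and 15.1, 16.9 and 18.7 CPM in 8 females, or 0.32 ± 0.06 higher in males (adjusted p = 0.0205). The sexes overlapped slightly. With the library of mouse Sample_1160, a female at 3.61 CPM, the difference was 0.46 (adjusted p = 0.392). It was also lost without mouse Sample_1170 (adjusted p = 0.0518), Sample_1172 (adjusted p = 0.0519) or Sample_1192 (adjusted p = 0.0545).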

How the data were processed

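Poly(A) RNA of the cerebellum and hippocampus of 18 mice was sequenced as 43 bp paired ends. The authors aligned the reads with STAR (version 250a) and deposited counts of reads per gene, 1 table per tissue, with no normalization. The genome build in their notes is mm9, but gene positions in the deposited tables are GRCm38 positions. How strand and multimapping reads were handled is not given in the sources used here, so that genes overlapping on opposite strands, such as Kcnd3 and Kcnd3os, are uncertain. Library totals were 21421850 to 32544929 in the cerebellum and 17609321 to 45544188 in the hippocampus.

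Genes with more than 1 CPM in at least 6 libraries were kept, TMM factors were computed, and edgeR 4.0.16 (R 4.3.3) fitted sex and the number of Pogz alleles lost by its quasi-likelihood test, in its earlier form. P-values were adjusted over all genes by Benjamini-Hochberg, at 0.05. The tissues were compared in controls, and the allele effect between tissues by an interaction term. Each mouse gave both tissues, so animal numbers pair the libraries. The main fits across tissues did not use this pairing, and a block for the mouse was an alternative. Deviations from the group means correlated within a mouse with a median r of 0.249 (-0.378 to 0.437) over 17 mice. The hippocampal library of mouse Sample_1160 was left out, as the study left out 1 outlier. That it is this library was inferred, and results of the members are given with it too. Alternatives were DESeq2 1.42.0, other size factors, no filter, thinned counts, a term for animal numbers, and each mouse left out. The fits were also run on simulated counts, with planted changes larger than many of those called here. The outcome of these runs is not given.

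Members and lists (partners, and markers of 12 cell types or regions) were chosen with earlier results of these data known. Named genes are all members called in either tissue, the 8 with the smallest adjusted p being given by library, the 5 with the largest tissue difference in each direction, the leading gene of each family, and all called for sex or interaction. Some genes that this rule names are not reported here and are left out of the plots. Kcnk4, Kcnd1, Kcnma1, Kcnj13 and Kcnc1, the contrasts of Kcnc2 and Kcnt2 between tissues and the partners named were chosen after their values were seen.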

Additional observations from a re-analysis of the deposited data

Results flagged for a closer look

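In 77 groups of 6 libraries tested, 7 had 1 library far from the rest, measured as its gap to the nearest library over the range of the group, and chance gives about 1 in 20 groups. Mouse Sample_1160 was this library in 3 groups of cKO-/- hippocampi: Kcns1 (gap 0.711, at 16.9 CPM against 6.57 to 9.57), Kcng2 (gap 0.683, at 80.5 CPM against 19.2 to 38.7) and Kcnj10 (gap 0.6254, at 148 CPM against 230.2 to 279.6). Mouse Sample_1433 was it in 2 groups of cKO+/- cerebella, for Kcnt2 (gap 0.741, at 2.20 CPM against 0.647 to 1.05) and Kcnd3 (gap 0.668, at 139 CPM against 172 to 188). In the cKO+/- hippocampi Kcng4 was apart in mouse Sample_933 (gap 0.664, at 15.4 CPM against 6.12 to 9.25). In the control cerebella Kcnv1 was apart in mouse Sample_1190 (gap 0.642), at 3 reads or fewer in each library.

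The change per allele differed between the tissues in 3 members by the interaction test with edgeR, with a hippocampal minus cerebellar difference of -0.89 for Kcnq5, -0.59 for Kcnu1 and -0.32 for Kcnab2.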

How the results depend on the processing

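In the cerebellum 13 members were called. There were 2 with a term for animal numbers outside Sample_1120 to Sample_1219 (2.2% of all genes, against 13.7% in the main fit). In alternatives chosen after seeing the data, 8 were called without the 4 libraries high in brainstem markers (4.94% of all genes). Among the mice numbered Sample_1120 to Sample_1219 there were 3 (1.97% of all genes), and Kcnk5 turned to -0.055 there. In the hippocampus 8 were called. There were 1 with the term for animal numbers (0.474% of all genes, against 4.44% in the main fit) and 1 with all 18 libraries (1.72%). In alternatives again chosen after seeing the data, 4 were called without the controls of mice Sample_1129 and Sample_1172 (2.82% of all genes). Among mice Sample_1120 to Sample_1219 each of the 8 kept its sign, but with 1 cKO-/- library this fit cannot show whether a call holds. The sex difference in the hippocampus, 1 member and 0.907% of all genes, had 2 with relative log expression factors (1.15%) and 2 without the filter (0.55%). It had 6 with DESeq2 (4.36% of all genes) and 0 with all 18 libraries (0.0418%). The interaction, 3 members and 1.63% of all genes, had 5 with DESeq2 (3.1% of all genes). It had 2, Kcnq5 and Kcnu1, with relative log expression factors (1.58%), no filter (0.961%), no sex term (1.55%), thinned counts (1.51%) or all 18 hippocampi (1.53%). Without the 4 animals high in brainstem markers it had the same 2 (0.794%). The causes of these shifts were not tested. Leaving out 1 mouse gave 8 to 16 members in the cerebellum (8 without mouse Sample_1190 or Sample_1385, 16 without mouse Sample_1160), 4 to 12 in the hippocampus (4 without mouse Sample_1379, 12 without mouse Sample_936), 0 to 4 for sex in the hippocampus, 0 to 0 in the cerebellum, 60 to 62 for the tissues and 1 to 6 for the interaction (1 without mouse Sample_1385). Shares of all genes in the fits that left out 1 mouse are not given here. With the mouse as a replicate block the tissues kept 61 members, the same 61 (73.0% of all genes). The interaction then had 4 (2.38%), adding Kcnc4 (-0.26, adjusted p = 0.03). Adjusted p-values with the block were 0.0312 for Kcnq5, 0.0102 for Kcnu1 and 0.0433 for Kcnab2. The block changed no other call among the members. By dose, DESeq2 called 15 members in the cerebellum (18.3% of all genes) and 12 in the hippocampus (7.36%). Depth limits Kcnu1, Kcnt2 and Kcnk5 most, with 8 to 95 reads per cerebellar library.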
